A study of Mus musculus with 33 samples.

Results

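Retinoic acid signalling was followed through 7 genes of the mouse frontal cortex: Cyp26b1, which encodes an enzyme that breaks retinoic acid down, the nuclear receptors Rara, Rarb, Rxra and Rxrg, the retinol carrier Rbp4 and the intracellular retinoic acid binding protein Crabp1. They were found by gene symbol in the 2 deposited tables of read counts, 1 per sex, which list 23366 genes each, and all 7 were present and were counted highly enough to be tested in both. The 7 genes were chosen by their measured differences between the groups in earlier results of these same data. Their differences between groups are therefore given as a description, with a standard error and a 95% interval but with no p-value.

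Retinoic acid is made inside cells from retinol, the alcohol form of vitamin A, by retinol dehydrogenases and then retinaldehyde dehydrogenases. It binds retinoic acid receptors (RAR), which sit on DNA as a pair with a retinoid X receptor (RXR) and turn on nearby genes, and it is removed by enzymes of the CYP26 family. In the brain the pathway is known for patterning the early nervous system and, later, for its activity in the striatum, where Rarb and Rxrg are expressed in projection neurons.

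The tissue came from C57BL/6 offspring about 1 month old, 16 labelled female and 17 labelled male. All came from dams that breathed filtered air (6 females, 6 males), e-cigarette aerosol from cartridges with nicotine at 13 to 16 mg/mL (5 females, 6 males) or aerosol from cartridges without nicotine (5 females, 5 males) during gestation, and then breathed it together with their dams during lactation. Per the study's methods, each litter gave 1 pup, and each group was exposed in a chamber of its own, so treatment and chamber cannot be told apart. Males and females were prepared and sequenced in separate batches, so sex and batch cannot be told apart and levels were compared within a sex.

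Total counts ran from 17845672 to 27513174 per library. Among the libraries labelled male, nicotine replicate 21 held 215 CPM (counts scaled to the normalized library total) of Xist, the RNA that coats the inactive X in female cells, and 1 count over the Y-linked genes examined, against its label. It was kept as "the library labelled male nicotine replicate 21", and the fold changes of the 7 genes in nicotine males and the male correlations of Rarb, Rxrg and Crabp1 are also given without it. The groups also differed in markers of neighbouring brain regions, whose levels are given beside the results they move with.

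On the mm9 assembly used for the counts, Cyp26b1 lies at chr6:84521938-84543740 on the minus strand and Rara at chr11:98789132-98836256 on the plus strand. Rarb spans chr14:17263356-17651381 on the minus strand, Rxra chr2:27531960-27618477 on the plus strand and Rxrg chr1:169528515-169569754 on the plus strand. Rbp4 lies at chr19:38191110-38199811 on the minus strand and Crabp1 at chr9:54612555-54620917 on the plus strand. None of the 7 shares exonic bases with another annotated gene. Of all 50-base windows of their transcripts, 0.268% for Rara and 0.341% for Rxrg, and none for the other 5, occurred in a transcript of another gene.

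Receptor pairs of RAR and RXR are known to bind direct repeats of a hexamer separated by a short spacer. The hexamers AGGTCA or AGTTCA or GGGTCA or GGTTCA were searched on both strands in RefSeq promoters of the GRCm38.p6 assembly (250 bases before to 50 after each gene's start), in which all 7 genes were matched with 13 promoters. A single hexamer occurred in 43.7% of the 32851 promoters and in 7 of these 13, those of Rara, Rarb, Rbp4, Rxra and Rxrg. A direct repeat with a spacer of 5 bases occurred in 32 promoters (0.0974%), and of the 7 genes only Rarb had one. Spacers of 1 base (73 promoters, 0.222%) and of 2 bases (88 promoters, 0.268%) were met in none of the 13. The stretch around the repeat of Rarb, at chr14:16575483-16575559 on the minus strand, is shown because Rarb is a receptor of the pathway whose own promoter is a textbook target, and that of Cyp26a1, another enzyme of retinoic acid removal, at chr19:37697746-37697807 on the plus strand, stands beside it for comparison. Both are written 5′ to 3′ on the gene's strand with the repeat in capitals, which in Cyp26a1 reads on the opposite strand.
Rarb: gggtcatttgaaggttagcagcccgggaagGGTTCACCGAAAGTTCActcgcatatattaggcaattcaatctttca
Cyp26a1: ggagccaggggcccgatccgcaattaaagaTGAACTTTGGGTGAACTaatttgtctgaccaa
The repeat begins 53 bases before the start of Rarb and 32 bases before that of Cyp26a1. A match of letters describes the sequence and shows no binding.

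Under filtered air, levels per kilobase of exon (CPM/kb, on a linear scale) placed Rxrg and Rarb at the top and Rara and Crabp1 at the bottom. In females, Rxrg had 13.8 ± 5.23 CPM/kb (SD, n = 6), Rarb 10.5 ± 3.81, Rbp4 9.51 ± 1.83, Rxra 9.24 ± 0.544, Cyp26b1 6.41 ± 1.77, Crabp1 2.28 ± 1.03 and Rara 2.01 ± 0.23. In males the order was Rxrg (13.3 ± 2.6 CPM/kb, n = 6), Rarb (11.5 ± 2.17), Rxra (9.26 ± 0.719), Rbp4 (7.82 ± 0.766), Cyp26b1 (4.78 ± 1.84), Crabp1 (3.1 ± 0.453) and Rara (2.37 ± 0.239). The ranges over libraries of neighbours in these orders overlapped, except for Cyp26b1 with Crabp1 in females and Crabp1 with Rara in males. The genes differed in how evenly they were expressed. Among the air libraries the coefficient of variation was 5.88% in females and 7.77% in males for Rxra and 11.5% and 10.1% for Rara, against 27.5% and 38.5% for Cyp26b1, 36.4% and 18.9% for Rarb and 38% and 19.6% for Rxrg.

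**Figure D1:**
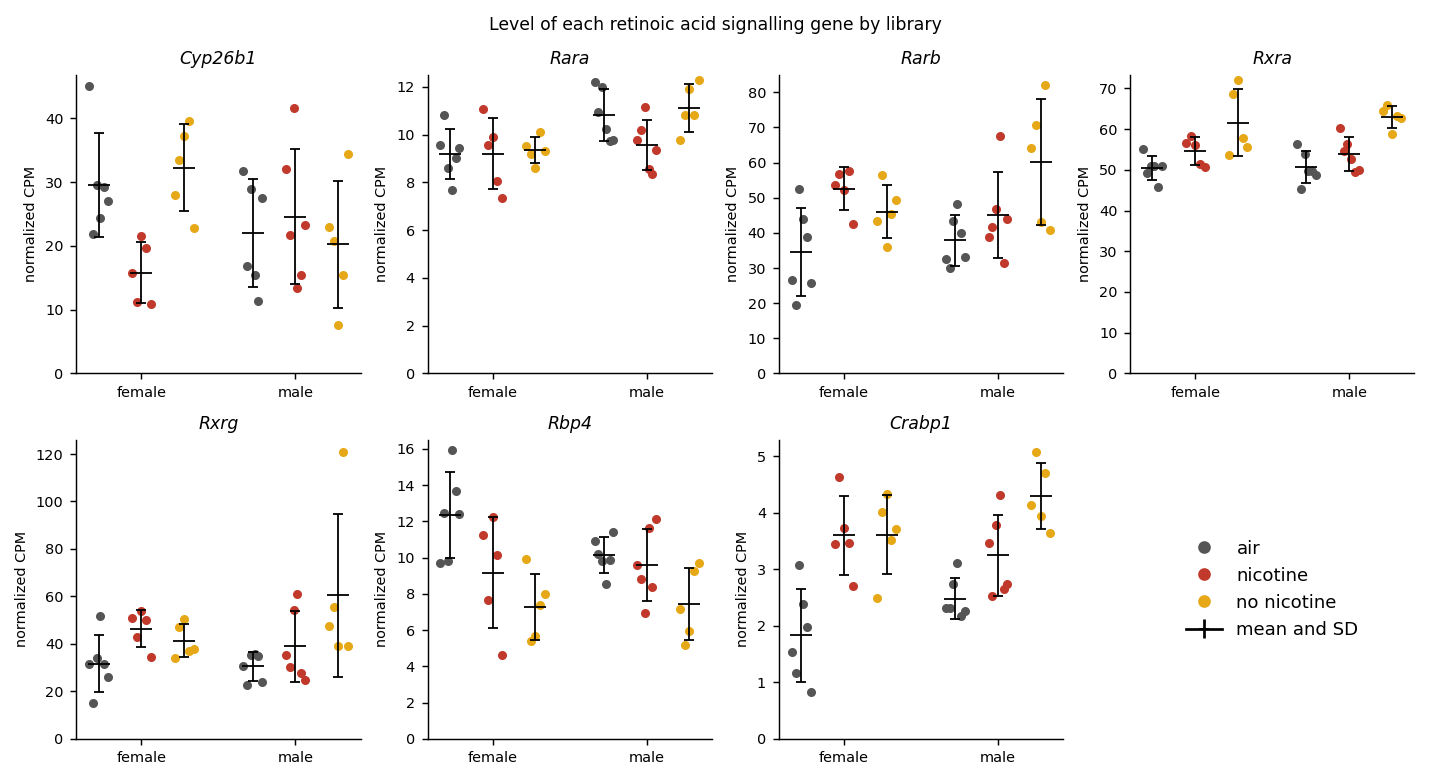
Normalized CPM (linear axis from 0) of each of the 7 genes in every library, by sex and treatment; a dot is 1 library and the bar shows the mean with SD (n = 5 or 6). Female Cyp26b1 under nicotine (10.9 to 21.6 CPM) lies below all air libraries, and male Rxra and Crabp1 without nicotine lie above all air libraries.

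Cyp26b1, the main retinoic acid degrading enzyme of the adult brain, was lower in nicotine females than in air females and in no other group compared with air did its range part from that of air. Air females had a lowest level of 21.9, a median of 28.2 and a highest of 45 CPM. Nicotine females had 15.8, 11.2, 21.6, 19.6 and 10.9 CPM, and no nicotine females 28, 33.5, 37.2, 39.7 and 22.9 CPM. All 5 nicotine libraries were below the lowest air library and below the lowest no nicotine library. The log2 fold change of nicotine against air was -0.90 (SE 0.207, 95% interval -1.33 to -0.46), a level 0.536 times that of air, and that of no nicotine against air was 0.13 (SE 0.196, -0.29 to 0.54). Directly compared, nicotine differed from no nicotine females by -1.03 (SE 0.214). In males the groups overlapped throughout, from 11.4 to 31.8 CPM in air, 13.3 to 41.6 with nicotine and 7.57 to 34.5 without. The male log2 fold changes were 0.16 (SE 0.326) with nicotine and -0.13 (SE 0.344) without, and their 95% intervals (-0.53 to 0.84 and -0.85 to 0.60) are too wide to show that there was no change. The female change under nicotine was 1.04 lower than the male one on the log2 scale (95% interval of female minus male -1.90 to -0.19), or -1.15 without the library labelled male nicotine replicate 21.

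Rara, the broadly expressed RAR, kept within a narrow range. Its female means were 9.18 ± 1.05 CPM in air (SD, n = 6), 9.2 ± 1.49 with nicotine (n = 5) and 9.36 ± 0.549 without (n = 5), and its male means 10.8 ± 1.09 (n = 6), 9.57 ± 1.05 (n = 6) and 11.1 ± 0.998 (n = 5). Ranges overlapped in each comparison. The log2 fold changes against air were 0.00 and 0.03 in females and -0.18 (SE 0.0834) and 0.04 in males, for nicotine and no nicotine in that order.

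Rarb, the RAR of striatal projection neurons, had higher mean levels than air in all 4 exposed groups. In air females it ranged from 19.6 to 52.4 CPM (median 32.7). Nicotine females had 53.6, 56.8, 52.2, 57.7 and 42.6 CPM and no nicotine females 43.4, 56.4, 35.9, 45.3 and 49.2 CPM, so that 3 and 1 of 5 exceeded the highest air library. In males, air libraries ran from 29.9 to 48.1 CPM (median 36.6), nicotine libraries from 31.5 to 67.7 (median 42.7), and the no nicotine libraries had 64.1, 70.8, 43.1, 81.9 and 40.9 CPM. The male no nicotine group split into 3 libraries above all air libraries and 2 among them. The log2 fold changes were 0.60 (SE 0.193) and 0.41 (SE 0.194) in females with and without nicotine, and 0.25 (SE 0.186) and 0.67 (SE 0.192) in males. That of nicotine males was 0.10 without nicotine replicate 19.

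Rxra, a widely expressed RXR, showed small differences, and its coefficient of variation was between 4.27% and 7.77% in each group other than no nicotine females, where it was 13.3%. Air females had 45.9 to 55 CPM (median 50.9), nicotine females 56.7, 58.3, 56, 51.5 and 50.7, and no nicotine females 53.7, 68.6, 72, 57.9 and 55.6. Male libraries had 45.3 to 56.4 CPM in air (median 49.7), 49.3 to 60.3 with nicotine (median 53.6), and 64.4, 66, 58.7, 63.1 and 62.8 without. All 5 male no nicotine libraries were above the highest air library, as were 4 of 5 in females. The log2 fold change of no nicotine against air was 0.29 in females (SE 0.0722, 95% interval 0.13 to 0.44) and 0.32 in males (SE 0.0578, 0.20 to 0.44), that is, 1.22 and 1.25 times the level of air. With nicotine it was 0.11 (SE 0.0726) and 0.09 (SE 0.0557).

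Rxrg, the RXR that is enriched in striatal projection neurons, followed the same order as Rarb. Females had 15.1 to 51.8 CPM in air (median 31.5), 50.7, 42.9, 53.9, 50 and 34.5 with nicotine, and 34.1, 47, 50.4, 37 and 37.9 without. Males had 22.5 to 35.8 CPM in air (median 32.8), 24.8 to 61 with nicotine (median 32.9), and 47.7, 55.5, 39.1, 121 and 39.1 without. The 5 male no nicotine libraries lay above all male air libraries, and 1 of them, replicate 5, stood far above the other 4. The male log2 fold change without nicotine was 0.98 (SE 0.284), and 0.57 without that library. The others were 0.35 (SE 0.277) in nicotine males, 0.55 (SE 0.21) in nicotine females and 0.38 (SE 0.21) in no nicotine females. That of nicotine males was 0.18 without nicotine replicate 19. Across alternatives and single libraries left out, that of no nicotine females ran from 0.23 to 0.57.

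Rbp4, which carries retinol in plasma and is also transcribed in a class of cortical neurons, had lower mean levels than air in each exposed group. Its range in females was 9.72 to 15.9 CPM in air (median 12.4), and the libraries had 11.2, 7.67, 12.2, 10.1 and 4.61 CPM with nicotine and 9.94, 5.4, 5.69, 7.36 and 7.97 without. In males it was 8.57 to 11.4 CPM in air (median 10), 6.93 to 12.2 with nicotine (median 9.21), and 7.16, 5.17, 5.96, 9.27 and 9.71 without. Of the no nicotine libraries, 4 of 5 in females and 3 of 5 in males were below the lowest air library of their sex, and the other libraries overlapped with air. The log2 fold changes without nicotine were -0.76 in females (SE 0.212, 95% interval -1.21 to -0.31) and -0.45 in males (SE 0.158, -0.78 to -0.12). With nicotine they were -0.43 (SE 0.209) and -0.08 (SE 0.148), and that of females was -0.26 without nicotine replicate 6.

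Crabp1, which binds retinoic acid in the cytoplasm, had the lowest counts of the 7, 19 to 117 reads per library. Air females had 0.829 to 3.09 CPM (median 1.76), nicotine females 3.46, 4.63, 3.73, 3.47 and 2.71, and no nicotine females 2.49, 4.02, 4.33, 3.52 and 3.72. Air males had 2.17 to 3.11 CPM (median 2.32), nicotine males 2.52 to 4.31 (median 3.1), and no nicotine males 4.14, 5.08, 3.95, 4.71 and 3.65. In each female exposed group 4 of 5 libraries exceeded the highest air library, as did all 5 no nicotine males and 3 of 6 nicotine males. The log2 fold changes were 0.95 (SE 0.246) and 0.97 (SE 0.243) in females with and without nicotine, close to 2 times the level of air (1.94 and 1.95), and 0.39 (SE 0.143) and 0.80 (SE 0.144) in males.

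**Figure D2:**
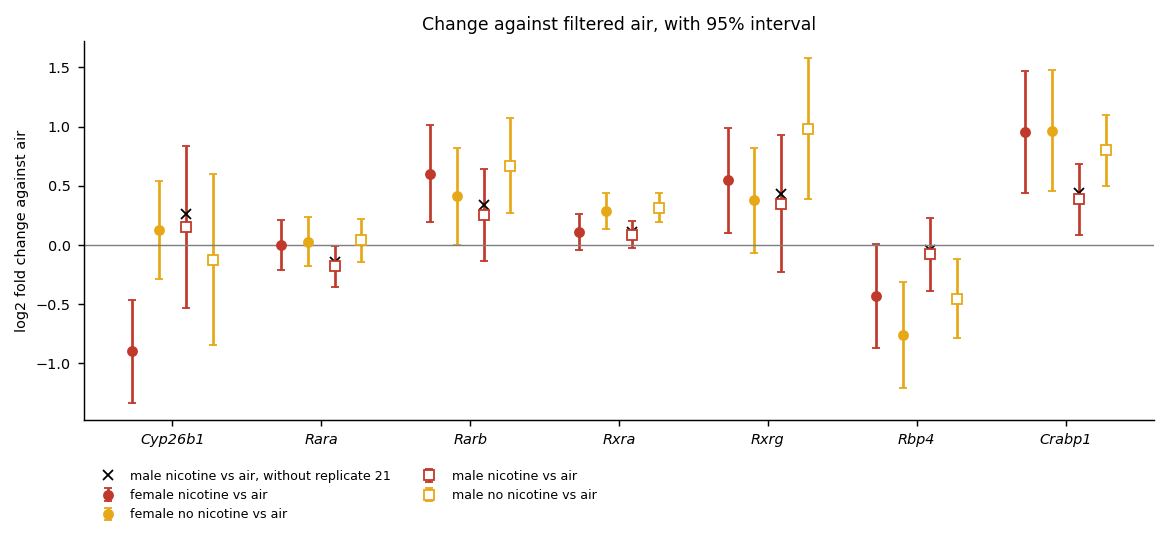
Log2 fold change against filtered air (vertical axis) with its 95% interval for each gene, filled circles for females and open squares for males, red with and yellow without nicotine; crosses give nicotine males without replicate 21. Crabp1 lies above 0 in all 4 comparisons, from 0.39 to 0.97, and Cyp26b1 is at -0.90 in nicotine females against 0.13, 0.16 and -0.13 elsewhere.

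How many of the 7 passed the threshold for a call (edgeR's quasi-likelihood test, adjusted p below 0.01 over all genes tested) is given beside the share of all genes that did, and since these contrasts chose the genes nothing is read from it. With nicotine in females, 1 of 7 passed, Cyp26b1 as lower, where 4.29% of 15158 genes passed, 1.98% as higher and 2.32% as lower. Without nicotine in females, 2 of 7 passed, Rxra and Crabp1 as higher, where 12.1% of genes passed, 5.03% as higher and 7.03% as lower. In males without nicotine the same 2 genes passed as higher, where 13.6% of 15293 genes passed, 6.15% as higher and 7.47% as lower. In nicotine males none of the 7 passed, and the share of all genes was 0%. The edgeR test then left 2203 genes at an unadjusted p below 0.05, and DESeq2 called 159. DESeq2 called 1319 genes in nicotine females, 2591 in no nicotine females and 2624 in no nicotine males. Ranges that did not overlap with air were found for 1 of 7 genes in nicotine females (6.67% of all genes), 0 of 7 in no nicotine females (10.7%), 0 of 7 in nicotine males (2.05%) and 3 of 7 in no nicotine males (12.4%).

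The direct comparison set nicotine groups against no nicotine groups. Both aerosols came from different cartridges in separate chambers, and the study reports unlike mean particulate levels for them. Nicotine itself therefore cannot be told apart from these. None of the 7 passed in either sex, where the share of all genes was 0% in females and 0.248% in males. In females edgeR left 1267 genes at an unadjusted p below 0.05 and DESeq2 called 0. In males edgeR left 3071 genes at an unadjusted p below 0.05 and DESeq2 called 458. The widest difference was that of Cyp26b1 in females, given above. In males the differences were -0.63 for Rxrg (SE 0.282), -0.42 for Rarb (SE 0.191), -0.41 for Crabp1 (SE 0.141), 0.37 for Rbp4 (SE 0.159), 0.28 for Cyp26b1 (SE 0.344), -0.23 for Rxra (SE 0.0579) and -0.22 for Rara (SE 0.087), all on the log2 scale. Without male no nicotine replicate 5, that of Rxrg was -0.22. Without the library labelled male nicotine replicate 21, the 7 directions against air in nicotine males were as before, at 0.26 for Cyp26b1, -0.14 for Rara, 0.34 for Rarb, 0.11 for Rxra, 0.43 for Rxrg, -0.04 for Rbp4 and 0.44 for Crabp1. That library had the lowest level of its group for Rara (8.37 CPM), Rarb (31.5 CPM) and Rxra (49.3 CPM), and neither the lowest nor the highest for the other 4 genes.

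Female and male responses of the chosen genes to the same aerosol are compared as a description only. These genes were picked by group differences in the same data, so whether their intervals include 0 is not read as a test. Under nicotine, female minus male ran from -1.04 for Cyp26b1 (95% interval -1.90 to -0.19) to 0.58 for Crabp1 (-0.02 to 1.17). Without nicotine it ran from -0.60 for Rxrg (-1.37 to 0.17) to 0.26 for Cyp26b1 (-0.59 to 1.12). Over all 15105 genes tested in both sexes, the share called by edgeR was 0% for nicotine and 0% for no nicotine, with 978 and 742 genes at an unadjusted p below 0.05. An interval that includes 0 does not show that the sexes responded alike.

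Frontal cortex borders the striatum and the basal forebrain, and 5 lists of cell type markers were measured beside the 7 genes. In this bulk tissue, fewer cells of a type and less RNA per cell cannot be told apart. The 12 markers of cortical glutamatergic neurons (such as Slc17a7 and Tbr1) summed to 2910 to 3666 CPM in air females, 1990 to 2676 with nicotine and 1284 to 2799 without, and in males to 2783 to 3296, 2037 to 2785 and 1062 to 2054. By edgeR, 2 of these 12 markers fell in nicotine females, 10 in no nicotine females, 0 in nicotine males (8 at an unadjusted p below 0.05) and 10 in no nicotine males, none rising. Cortical markers were thus present in all libraries, with a lower median sum in each exposed group than in air.

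Markers of the regions below the cortex had median log2 fold changes above 0. The 12 markers of striatal projection neurons (such as Drd1a and Adora2a) summed to 1375 to 3285 CPM in air females, 2929 to 4074 with nicotine and 2576 to 3135 without, and in males to 1820 to 3162, 2045 to 4060 and 2165 to 6108. The 2045 CPM were those of the library labelled male nicotine replicate 21, and the next lowest of that group had 2447. All 12 had a log2 fold change above 0 in each comparison with air, and 3, 1, 0 and 3 of them rose past the threshold in nicotine females, no nicotine females, nicotine males (0 at an unadjusted p below 0.05) and no nicotine males. The list medians were 0.71, 0.45, 0.36 and 0.74 on the log2 scale. In the same order of groups, Rarb had 0.60, 0.41, 0.25 and 0.67 and Rxrg 0.55, 0.38, 0.35 and 0.98. The 7 markers of basal forebrain cholinergic neurons (such as Chat and Lhx8) all rose in these comparisons other than that of nicotine males, with list medians of 1.56, 2.09 and 1.56, and none passed in nicotine males (7 at an unadjusted p below 0.05, median 0.98). Their sum was 22.9 to 89.2 CPM in air females and 40.5 to 88.6 in air males, against 93.3 to 296 in exposed females and 104 to 254 in exposed males.

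Choroid plexus and meninges were examined because both are known sources of retinoid proteins. The sum of the 12 choroid plexus markers was 17.5 to 48.7 CPM in air males and 38.4 to 1012 in no nicotine males, of which 1012 belonged to replicate 7 alone, and 30.5 to 44.2 in nicotine males. In females it was 19.2 to 351 CPM in air, 26.2 to 51.9 with nicotine and 26.9 to 314 without. Air replicates 3 (351 CPM) and 6 (122 CPM) and no nicotine replicate 3 (314 CPM) stood above the other female libraries, which had at most 65.9. By edgeR, 5 of the 12 markers rose in no nicotine males and none passed in the other comparisons with air. At an unadjusted p below 0.05 there were 5 in nicotine females, of which Ttr, Folr1, Kcne2 and Aqp1 were lower than in air and Clic6 was higher, 3 in no nicotine females and 2 in nicotine males. Among these markers, Folr1, Kcne2, Slc4a5 and Tmem72 had 0 counts in some libraries. No marker of the other 4 lists was at 0 in any library. None of the 11 markers of meningeal fibroblasts passed in any of the 4 comparisons (0, 4, 1 and 1 at an unadjusted p below 0.05). The part of any of these levels in the differences of the 7 genes was not tested.

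Variation of the 7 genes among libraries of the same group was examined with the group means removed. The 7 genes and the marker lists were still chosen with earlier results of these same data known. For each library the deviation from its group's mean log2 CPM was taken, and each gene was set against the mean of each marker list, in 16 female and in 17 male libraries. This gave 70 relations, tested by shuffling libraries within groups (100000 draws, two-sided) and adjusted by the Benjamini-Hochberg procedure. Of the 70, 7 passed at 0.05, 4 in females and 3 in males. The female number changed when single libraries were left out, as given in the closing section.

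Rarb, Rxrg and Crabp1 followed the striatal markers in both sexes. For Rarb, Pearson's r was 0.898 in females (permutation p = 0.00068, adjusted 0.00952) and 0.947 in males (permutation p = 1e-05, the smallest these draws can give, adjusted 0.0007), and Spearman's rho 0.875 and 0.945 (permutation p = 0.00118 and 1e-05). Without the 2 libraries farthest from the median of the marker mean, r was 0.858 and 0.947. For Crabp1, r was 0.832 in females (permutation p = 0.00372, adjusted 0.0372) and 0.747 in males (permutation p = 0.00059, adjusted 0.00952), with rho 0.833 and 0.768 (permutation p = 0.0031 and 0.0008), and 0.876 and 0.825 without the 2 farthest libraries. Rxrg had r = 0.828 in males (permutation p = 0.00015, adjusted 0.0035), with rho 0.815 (permutation p = 0.00061) and 0.78 without the 2 farthest libraries. In females its r was 0.818 (permutation p = 0.00141, adjusted 0.0164), but rho was 0.659 (permutation p = 0.0123, adjusted 0.105). Its female r without the 2 farthest libraries, air replicates 2 and 4, was 0.503 (permutation p = 0.0471, not adjusted). The female relation was thus weaker without those 2 libraries. Leaving out the library labelled male nicotine replicate 21 gave male values of r of 0.939 for Rarb, 0.819 for Rxrg and 0.717 for Crabp1.

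Rbp4 followed the cortical glutamatergic markers in females, with r = 0.881 (permutation p = 3e-05, adjusted 0.00105), rho = 0.882 (permutation p = 0.00016) and r = 0.822 without the 2 farthest libraries. In males r was 0.558 and did not pass (permutation p = 0.0924, adjusted 0.359), and the difference between the sexes was not tested. Cyp26b1, Rara and Rxra passed with none of the 5 lists. For Cyp26b1, r with the striatal markers was 0.144 in females and 0.067 in males, and with the cortical markers 0.192 and 0.043. The nearest to the threshold among the 3 was Rxra with the meningeal markers in females (r = -0.645, permutation p = 0.0103, adjusted 0.08).

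**Figure D3:**
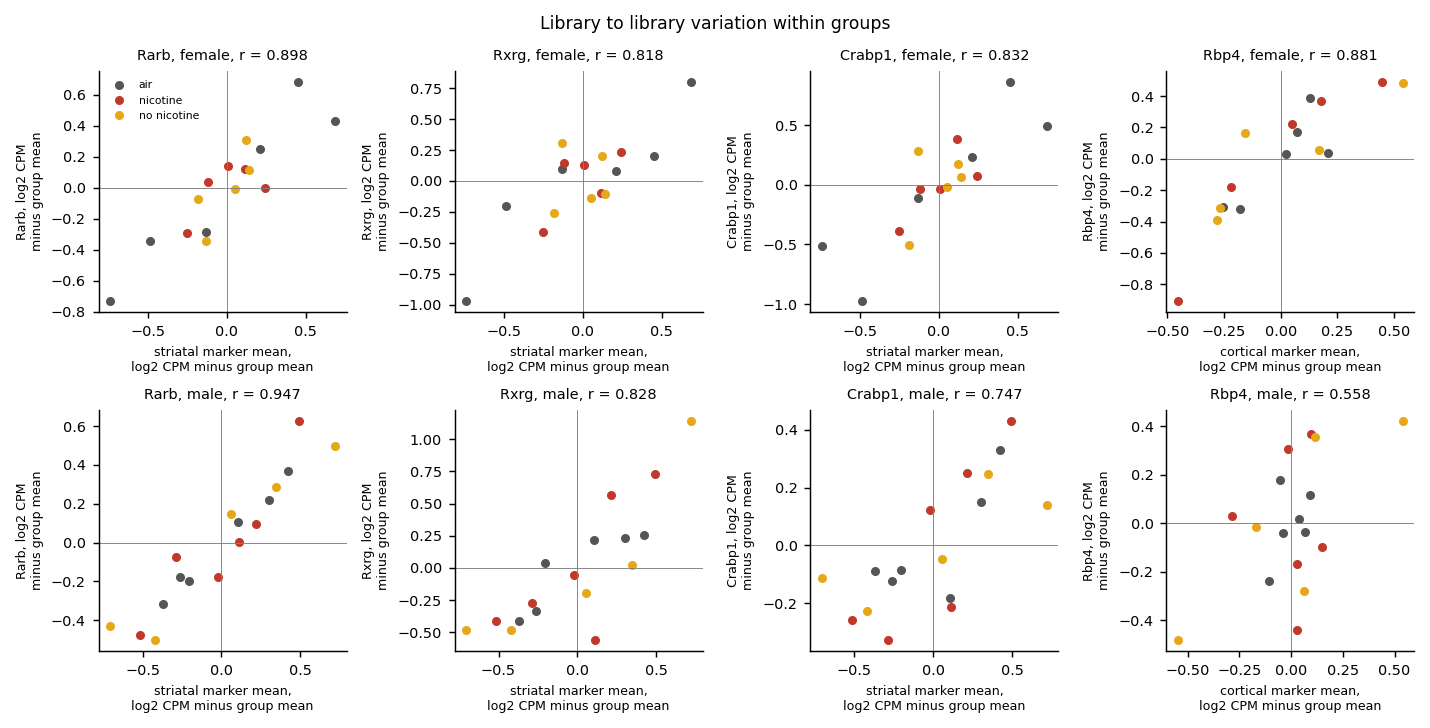
Deviation of each library from its group mean (log2 CPM) for Rarb, Rxrg and Crabp1 against the striatal marker mean and for Rbp4 against the cortical marker mean, females above and males below; a dot is 1 library, coloured by treatment, and r is Pearson's. The dots rise together for the 3 striatal relations in both sexes (r = 0.747 to 0.947) and for Rbp4 in females (r = 0.881).

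**Figure D4:**
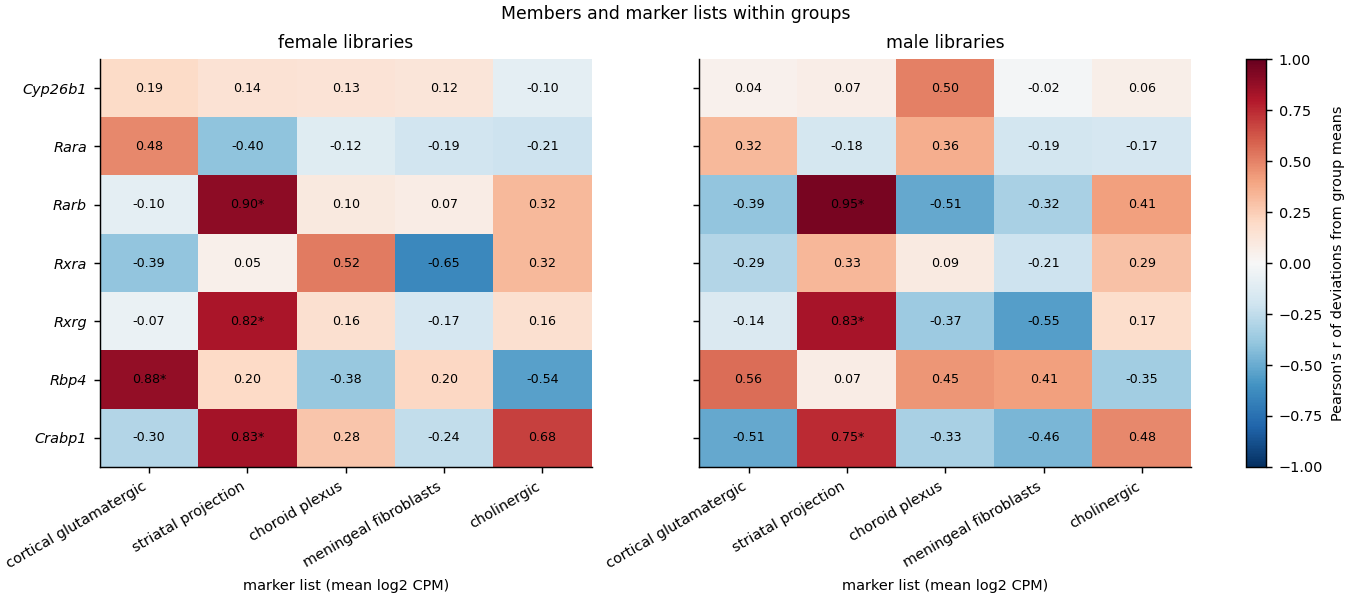
Pearson's r of deviations from group means for each gene (rows) and marker list (columns) in 16 female and 17 male libraries; colour and printed value are r, and an asterisk marks an adjusted permutation p below 0.05. The 7 asterisks fall on the striatal column for Rarb, Rxrg and Crabp1 and on the cortical column for Rbp4 in females.

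Among themselves, Rarb, Rxrg and Crabp1 also deviated together, with r of 0.68 and 0.807 for Rarb with Rxrg, 0.763 and 0.75 for Rarb with Crabp1 and 0.648 and 0.723 for Rxrg with Crabp1, in females and males. Every other pair of the 7 had an r below 0.5 in at least 1 sex. These are descriptions over 16 and 17 libraries that share the same dissections.

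The genes whose deviations were most like those of each of the 7 were ranked by the lower of the female and male r. For Rarb they were Gpr6 (0.918 and 0.944) and Drd1a (0.914 and 0.951), an orphan receptor and a dopamine receptor of striatal projection neurons. For Rxrg they were Syndig1l (0.882 and 0.951) and Cd4 (0.88 and 0.951), and for Crabp1 Rgs9 (0.858 and 0.871) and Six3 (0.891 and 0.852). Gpr6, Drd1a, Syndig1l and Rgs9 are members of the striatal marker list. For Rbp4 they were Cplx3 (0.825 and 0.818) and Igfbp4 (0.78 and 0.75), for Rxra Snx27 (0.728 and 0.722), for Rara Rnf169 (0.748 and 0.758) and Inhbb (0.677 and 0.687), and for Cyp26b1 Grhl1 (0.763 and 0.682) and St6galnac5 (0.655 and 0.728). None of the genes named for these 4 is in a marker list.

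Around the 7 genes, 54 other genes of retinoid metabolism and signalling were listed, of which 47 were counted highly enough to be tested. The rule did not use them. Adh7, Bcmo1, Cyp26c1, Dhrs9, Rbp2, Rbp7 and Stra8 were below the filter. By edgeR, 0 rose and 1 fell in nicotine females, 2 rose and 9 fell in no nicotine females, 0 changed in nicotine males, where 9 of the 47 had an unadjusted p below 0.05 and DESeq2 called 1, and 4 rose and 7 fell in no nicotine males, against the shares of all genes given above. These counts of calls changed with the method and with single libraries left out, as given in the closing section. The median log2 fold change of the 47 was -0.01, 0.01, -0.01 and 0.00, and that of all genes 0.00, 0.01, 0.01 and 0.02. Nicotine against no nicotine gave 0 calls in females and 0 in males (6 and 15 at an unadjusted p below 0.05). By edgeR, the sexes differed in the response of 0 of the 47 under either treatment (3 at an unadjusted p below 0.05 in each), and the count was also 0 once the library labelled male nicotine replicate 21 was left out.

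Enzymes that make retinoic acid did not pass in any comparison. Aldh1a1, the most abundant retinaldehyde dehydrogenase here, had 53.7 to 82.7 CPM in air females and 50.3 to 62 in air males, and log2 fold changes against air from -0.16 to 0.13. Aldh1a2, the enzyme of the meninges, ranged from -0.45 to 0.45 and Aldh1a3 from -0.75 to 0.21. Of the enzymes upstream, Rdh10, which makes retinaldehyde, had log2 fold changes from 0.04 to 0.24, and Dhrs3, which reduces it back, from -0.11 to -0.02, none passing. Rdh5, a further retinol dehydrogenase, rose in no nicotine males by 0.69 (SE 0.158, edgeR adjusted p = 0.00396). That call was lost without male air replicate 31 (edgeR adjusted p = 0.0113) and under 1 of 7 alternative settings. The rise was 0.44 without male no nicotine replicate 7, still past the threshold. Cyp26a1, the other degrading enzyme tested, had 1 to 19 reads per library, with log2 fold changes from -0.47 to 0.74 and SE of up to 0.557. In nicotine females its 95% interval was -1.65 to 0.70, which includes a change of the size seen there for Cyp26b1.

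Retinol uptake and binding gave 1 call. Stra6, the retinol uptake receptor, ranged from -0.16 to 0.32 on the log2 scale, Crabp2 from -0.14 to 0.58 and Fabp5 from -0.01 to 0.14, with no call. Ttr, the plasma partner of Rbp4 and the leading transcript of choroid plexus, was called higher in no nicotine males (5.28, SE 1.36, edgeR adjusted p = 0.00839). Male no nicotine replicate 7 held 839 CPM of it, the median of that group was 5.37 CPM, and without that library the log2 fold change was 0.14 (adjusted p = 0.923). The remaining receptors, Rarg (-0.06 to 0.18) and Rxrb (-0.10 to 0.00), gave no call.

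The 8 genes listed as receptor cofactors included the orphan receptors Nr2f1 and Nr2f2. Of these 8, 5 fell in no nicotine females and 4 in no nicotine males, where 7.03% and 7.47% of all genes fell. The others did not pass. Nr2f2, an orphan receptor related to Nr2f1, was at 0.76 and 0.27 on the log2 scale without a call. Nr2f1, an orphan receptor that competes with RAR and RXR for repeats and patterns cortical areas, fell in nicotine females by 0.69 on the log2 scale (SE 0.0979, edgeR adjusted p = 0.000816), the 1 pathway call there. Without nicotine it fell by 0.51 in females (SE 0.0971, adjusted p = 0.0018) and by 0.66 in males (SE 0.119, adjusted p = 0.000593). Its levels were 79.3 to 104 CPM in air females against 48.1 to 62.4 with and 49.5 to 71.2 without nicotine, and 73.4 to 88.2 CPM in air males against 42.3 to 62.9 without, so that these groups did not overlap with air. In nicotine males it was -0.27 (SE 0.112) and did not pass. Ncor1, a corepressor, fell without nicotine by 0.27 in females and 0.28 in males (adjusted p = 0.00133 and 0.000211). The coactivators Ncoa1 and Ncoa2 fell by 0.19 and 0.21 in females (adjusted p = 0.00442 and 0.00891) and by 0.21 and 0.24 in males (adjusted p = 0.000684 and 0.000505). Nrip1, a corepressor of several nuclear receptors, fell by 0.54 in no nicotine females (adjusted p = 0.00156).

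Of the 10 partners of RXR, 3 fell in each sex without nicotine, beside the same shares of all genes, and the other 7 did not pass. Nr4a2, an orphan receptor of deep cortical layers and dopamine neurons, fell by 1.69 in females (SE 0.403, edgeR adjusted p = 0.00614) and by 1.28 in males (SE 0.225, adjusted p = 0.000519), from a median of 67.2 CPM in air females and 63.7 in air males to 15.6 and 29. Pparg, a fatty acid sensor, fell by 1.36 and 1.15 (adjusted p = 0.00657 and 0.00518) at levels below 3.1 CPM. Thrb, a thyroid hormone receptor, fell by 0.50 and 0.29 (adjusted p = 0.00184 and 0.00571).

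Known targets of retinoic acid did not move in a single direction. Meis1 rose without nicotine by 0.63 in females and 0.56 in males (edgeR adjusted p = 0.00486 and 0.00867). Ret, a receptor of glial cell line derived neurotrophic factor, rose by 0.87 in no nicotine females (adjusted p = 0.00617) and Rarres2, a secreted adipokine, by 0.47 in no nicotine males (adjusted p = 0.0077). Nrgn, a calmodulin binding protein of excitatory neurons, fell by 1.19 in no nicotine females (adjusted p = 0.0029). Of the 23 calls of pathway genes against air, 8 were past the threshold under each alternative and without each library: Nr2f1 in nicotine females and no nicotine males, Ncor1 in both no nicotine groups, Nrip1 in no nicotine females, and Ncoa1, Ncoa2 and Nr4a2 in no nicotine males. The median cortical marker sum was lower in these groups than in air, as given above, and its part in these calls was not tested.

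**Figure D5:**
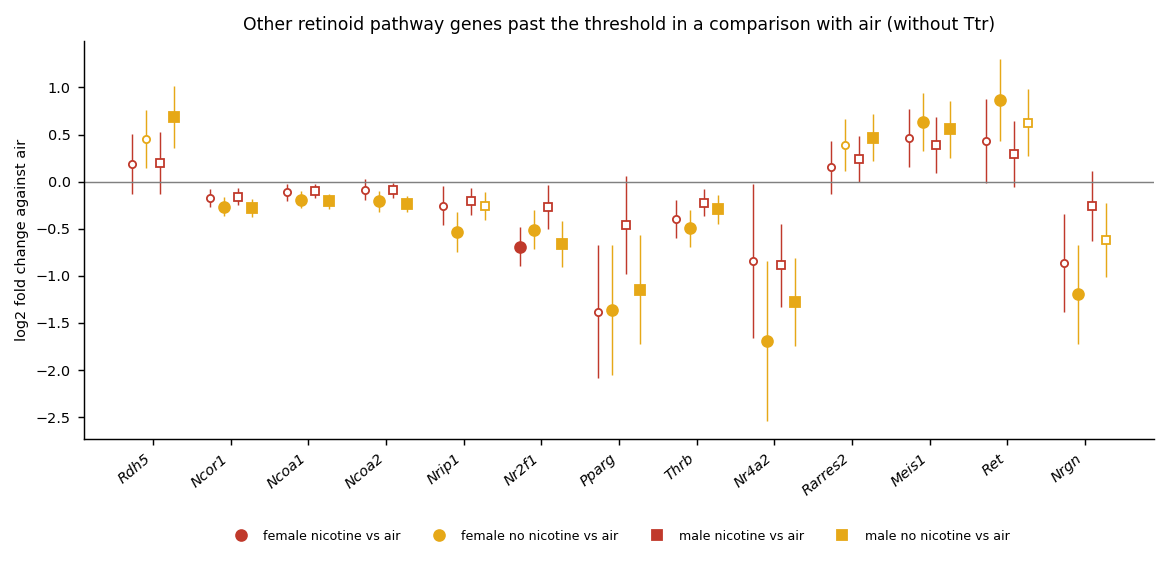
Log2 fold change against air with 95% interval for the pathway genes called in at least 1 comparison with air, apart from Ttr; circles are females and squares males, red with and yellow without nicotine, large filled symbols passed the threshold (edgeR, adjusted p below 0.01). Nr2f1 is at -0.69, -0.51 and -0.66 in the 3 comparisons it passed, and Ncor1, Ncoa1 and Ncoa2 lie between -0.28 and -0.19 where they passed.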

How the data were processed

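The labelled frontal cortex libraries used here came from 33 offspring. Per the study's methods more were sequenced, and outliers were excluded. Per the study's methods and the processing notes, the authors mapped single reads to the mm9 transcriptome with Bowtie, removed PCR duplicates with SAMtools and counted reads per gene with HTSeq, and they deposited raw counts, 1 table per sex. Whether counting used strand is not given in the sources used here. Normalized tables were also deposited and not used here, and 1 count column that matched no labelled sample was left out. Removing duplicates from single reads can lower the counts of the most abundant genes.

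Groups came from the labels. The 7 genes and all gene lists were chosen with earlier results of these data known. Genes whose CPM summed to at least 5 over a table were tested with edgeR 4.0.16 (R 4.3.3), with TMM normalization and no covariates, fitting the 3 groups of each table jointly, and a call required an adjusted p (Benjamini-Hochberg) under 0.01. The 95% intervals come from the SE and the degrees of freedom of that fit. Levels are TMM-normalized CPM, with a prior count of 1 on the log2 scale. Genes named are the 7, a fixed set of core pathway genes, pathway genes called against air, and for each of the 7 the 2 genes (mean CPM of at least 5 in each table) with the highest lower r of the sexes, apart from 2 genes that are not reported here. The 23366 listed genes have 15158 tested in females and 15293 in males. Alternatives were DESeq2 1.42.0, limma-voom (limma 3.58.1), other scalings and filters, a threshold of 0.05, fits of 2 groups, a replicate block and leaving out each library. The fits were tested on simulated data. Intervals over samples include biological spread, since each pup came from its own litter.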

Additional observations from a re-analysis of the deposited data

Results flagged for a closer look

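Chance places about 1 in 20 groups with a library apart by the criterion used, and 42 groups of the 7 genes were examined, of which 2 had one.

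Cyp26b1 in air females had 1 library far above the others, replicate 1 at 45 CPM, whose gap to the next was 0.67 of the range of the group. Without it the log2 fold change of nicotine against air in females was -0.74 in place of -0.90, and the 5 nicotine libraries were below the lowest air library either way.

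Rxrg in no nicotine males had 1 library far above the others, replicate 5 at 120.7 CPM, with a gap of 0.799 of the range. The same library had the highest sum of the 12 striatal markers, 6108 CPM, where the other 4 of the group had 2165 to 4480, and the highest Rarb level of the group, 81.9 CPM. Its Crabp1 level, 4.71 CPM, was the second highest of the group.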

How the results depend on the processing

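Under the alternatives and leaving out each library, no log2 fold change of the 7 genes moved by as much as the spread between replicates (1008 values compared). Leaving out a single library can hardly move a fold change that far, so little is read from those values. Some fold changes near 0 changed sign, among them Cyp26b1 in nicotine males (0.16, and -0.06 without nicotine replicate 17). In no nicotine males that of Cyp26b1 was -0.13 and reached 0.09. The largest shift was that of Rxrg in no nicotine males, 0.41, without replicate 5. Of the recomputed values of called pathway genes, 443 stayed past the threshold, 108 did not and none reversed.

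Counts of pathway genes called depended more on the settings. In nicotine females the count of 1 became 7 at an adjusted p below 0.05, 5 with DESeq2 and 5 with limma-voom, and 0 in nicotine males became 1 with DESeq2 and 1 in the fit of 2 groups. For nicotine against no nicotine in males 0 became 1 at 0.05. Leaving out 1 library gave 1 to 4 calls in nicotine females, 4 to 12 in no nicotine females (11 with all), 6 to 11 in no nicotine males (11 with all) and 0 to 1 for nicotine against no nicotine in males. Female correlations with marker lists past the threshold numbered 2 to 5 (4 with all), with 2 left without air replicate 3, air replicate 4 or nicotine replicate 6. Pathway counts were 4 in nicotine females without nicotine replicate 3 and 3 without air replicate 1, 4 in no nicotine females without no nicotine replicate 2, 3 or 5, 5 without air replicate 5 or 6 and 7 without air replicate 2, and 6 in no nicotine males without air replicate 31 or 39 and 7 without air replicate 38 or no nicotine replicate 4. The cause was not tested, other than that fewer samples enter.

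In females the replicate numbers are shared between groups. Deviations of same-numbered libraries correlated from -0.273 to 0.266 with mixed signs, so the numbers were not taken to pair samples. With the number as a replicate block, the pathway count in no nicotine females was 2 in place of 11. The male labels share no numbers between groups. Depth limits Cyp26a1 (1 to 19 reads) and the genes under the filter.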
